A study of Homo sapiens with 4 samples.

Results

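The microRNA hsa-miR-21 was 1 of the 1733 mature human miRNAs counted in each of 4 small RNA libraries, and the guide strand listed under that name was followed across all of them. The libraries came from total RNA of Hep3B and Huh7, human hepatoma cell lines (hepatic cancer cells, HCC), and of Hep3B-C and Huh7-C, the hepatic cancer stem cells (HCSC) cultured from each of these parent lines. Each of the 4 cell populations had 1 library, so there were no replicates and no value below has a check against variation between cultures. The depth ranged from 1739278 miRNA counts (Hep3B) to 5741567 (Huh7), of which 3 counts were taken as the smallest detectable level. The labels give no treatment, time or passage, and each HCSC population is a derivative of 1 parent line. The comparison of each HCSC population with its parent line addresses which miRNAs differ in the stem-like cells.

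A miRNA is cut from a hairpin precursor into a short duplex, of which the guide strand is loaded into an Argonaute protein and the passenger strand is mostly degraded. The loaded miRNA pairs through its seed, the bases 2 to 8 from its 5′ end, with sites in messenger RNAs and lowers their translation and stability. In liver and in many tumours miR-21 is known as an abundant, growth-promoting miRNA that represses the tumour suppressor PDCD4, and its gene is induced by NF-kB, AP-1 and STAT3.

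The MIR21 hairpin lies at chr17:59841266-59841337 on the plus strand (GRCh38). In GENCODE release 29 this places it within the gene VMP1 (chr17:59707192-59842255, plus strand), in the exon of the retained-intron transcript VMP1-216 (chr17:59837931-59842255). The hairpin of 72 bases is printed from RefSeq (GRCh38.p14) to show where the counted strand sits, with that strand, positions 8 to 29, in capitals.
MIR21 hairpin: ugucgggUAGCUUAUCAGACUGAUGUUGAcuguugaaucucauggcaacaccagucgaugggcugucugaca
The mature sequence at chr17:59841273-59841294 is set beside that of hsa-miR-590-5p (chr7:74191213-74191234, plus strand), the other RefSeq miRNA with the same seed, and beside the miRNAs that shared the top of the libraries with it. Capitals mark the seed.
hsa-miR-21: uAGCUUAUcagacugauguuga
hsa-miR-590-5p: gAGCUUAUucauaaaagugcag
hsa-miR-192: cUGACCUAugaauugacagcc
hsa-miR-378: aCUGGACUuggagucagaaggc
hsa-miR-148a: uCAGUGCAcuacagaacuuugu
hsa-miR-182: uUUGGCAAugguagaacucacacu
hsa-miR-122: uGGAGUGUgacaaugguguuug
Of 2370 distinct mature names in the RefSeq table, 2 carry the seed of hsa-miR-21. Aligned from the 5′ end, hsa-miR-21 and hsa-miR-590-5p have the same base at 8 positions, and at only 1 of the 14 positions after base 8. The other abundant miRNAs printed here have other seeds.

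The hsa-miR-21 count was 329850 in Hep3B and 568486 in its derivative Hep3B-C, against 2566558 in Huh7 and 1292482 in its derivative Huh7-C. It was the most abundant miRNA in Hep3B, Huh7 and Huh7-C, and ranked 2 in Hep3B-C behind hsa-miR-378. Its share of all miRNA counts was 19.0% in Hep3B (95% Clopper-Pearson confidence interval 18.91% to 19.02%) and 10.5% in Hep3B-C (10.44% to 10.49%). The share was 44.7% in Huh7 (44.66% to 44.74%) and 32.0% in Huh7-C (31.91% to 32.00%). Both Huh7-derived libraries thus held a larger share than both Hep3B-derived libraries, and within each pair the share was lower in the HCSCs, the change being -8.50 percentage points for Hep3B-C and -12.8 for Huh7-C. These intervals hold counting error only, and reads without molecular identifiers are not independent molecules. In such bulk samples, fewer cells of a type and less RNA per cell cannot be told apart.

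**Figure D1:**
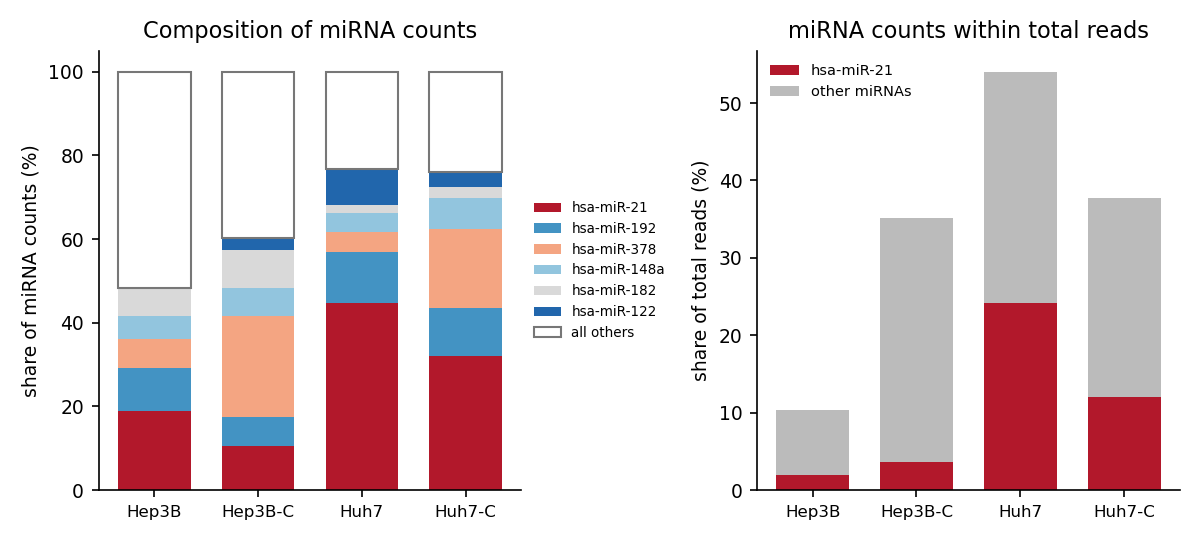
Left, the share of miRNA counts (%) taken by hsa-miR-21 and 5 other abundant miRNAs in each of the 4 libraries, with the rest in white (hsa-miR-122 of Hep3B included). Right, hsa-miR-21 and all other miRNAs as shares of total reads (%). The hsa-miR-21 segment falls from 19.0% to 10.5% and from 44.7% to 32.0% on the left, while on the right it rises from 1.97% to 3.68% in the Hep3B pair and falls from 24.2% to 12.1% in the Huh7 pair.

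The distance to the other leading miRNAs differed widely. In Hep3B the next miRNA was the liver-enriched hsa-miR-192, with 179088 counts, and hsa-miR-21 stood 1.84-fold above it. In Huh7 the next was again hsa-miR-192, with 706923 counts, and the ratio was 3.63. In the HCSCs the highest other miRNA was hsa-miR-378, processed from an intron of PPARGC1B, with 1298641 counts in Hep3B-C and 759746 in Huh7-C. There the ratio of hsa-miR-21 to hsa-miR-378 was 0.438 and 1.70, against 2.72 in Hep3B and 9.61 in Huh7. This ratio, which needs no library size, was lower in the HCSCs of both pairs. The ratio to hsa-miR-192 also was, at 1.47 against 1.84 in the Hep3B pair and 2.75 against 3.63 in the Huh7 pair. The ratio to the hepatocyte miRNA hsa-miR-122 moved in opposite directions, from 831 in Hep3B to 3.79 in Hep3B-C and from 5.24 in Huh7 to 8.93 in Huh7-C.

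In Huh7, hsa-miR-21 exceeded the next 5 miRNAs summed, by 1.30-fold. In the other libraries this ratio was below 1, at 0.519 in Hep3B, 0.201 in Hep3B-C and 0.723 in Huh7-C. The 2 most abundant miRNAs were enough for 50% of the counts in Huh7 and Huh7-C, while Hep3B needed 6 and Hep3B-C needed 4. The inverse Simpson index gives the number of equally abundant miRNAs that would be as concentrated. It was 13.9 in Hep3B and 10.5 in Hep3B-C, against 4.35 in Huh7 and 6.21 in Huh7-C. With hsa-miR-21 left out it became 18.2, 9.55, 10.1 and 7.85 in the same order. The low value of Huh7 was therefore the one that changed most, and without hsa-miR-21 Huh7 lay above Hep3B-C.

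**Figure D2:**
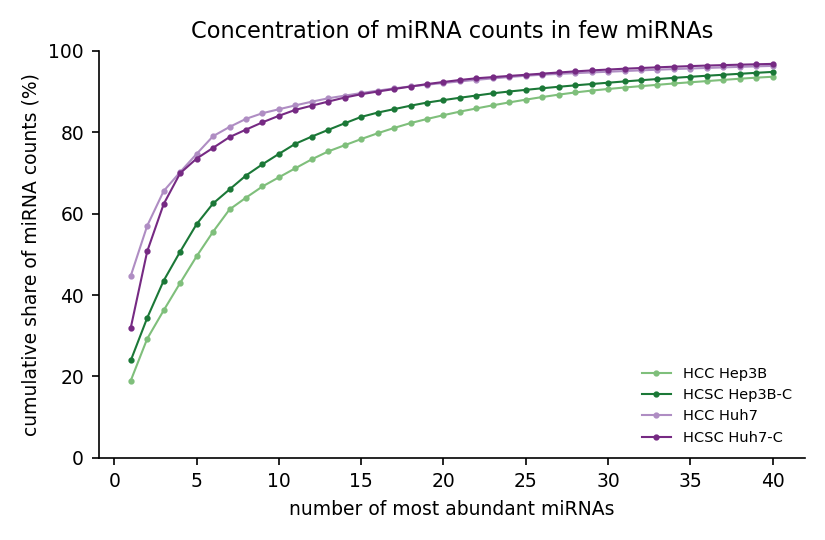
Cumulative share of miRNA counts (%, vertical axis) held by the most abundant miRNAs of each library (number of miRNAs, horizontal axis), 1 line per library. The first point is hsa-miR-21 in Hep3B (19.0%), Huh7 (44.7%) and Huh7-C (32.0%), while that of Hep3B-C is hsa-miR-378 (23.9%), and the Huh7 and Huh7-C lines pass 50% at 2 miRNAs.

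Expression was set against total reads as TPM, the counts per 1000000 total reads. The hsa-miR-21 level was 19654 TPM in Hep3B and 36818 TPM in Hep3B-C, 1.87-fold higher in the HCSCs. It was 241620 TPM in Huh7 and 120625 TPM in Huh7-C, 2.00-fold lower in the HCSCs. Hep3B-C over Hep3B gave a log2 fold change of 0.91 (95% exact binomial interval given the sum of both counts, 0.90 to 0.91), and Huh7-C over Huh7 gave -1.002. By the study's rule, a log2 fold change of 1 or more in either direction with an adjusted p of at most 0.01 in an exact Poisson test, hsa-miR-21 was not called in Hep3B-C and was called lower in Huh7-C. The Huh7 value of -1.00221 lay at the threshold, and its interval, -1.00526 to -0.999157, reached across it. Under the same rule 34.1% of the miRNAs tested were called higher and 2.52% lower in Hep3B-C, and 3.11% higher and 17.1% lower in Huh7-C. The Poisson test compares 2 libraries and not the conditions, so no p is given. The difference between the pairs, -1.91 on the log2 scale (counting interval -1.91 to -1.90), was not tested, as there was no replicate.

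The change in TPM is the sum of the change in how many of all reads were miRNA and the change in the share of hsa-miR-21 among them. In the Hep3B pair miRNA counts rose from 10.4% to 35.2% of total reads, a log2 change of 1.76, while the share of hsa-miR-21 changed by -0.86, which add to 0.91. All other miRNAs together rose 3.75-fold in TPM, from 83982 to 314869. Of the added miRNA TPM, hsa-miR-21 made up 6.92%. In the Huh7 pair the miRNA share of reads went from 54.1% to 37.8%, a log2 change of -0.52, and the share of hsa-miR-21 changed by -0.48. The other miRNAs together went from 298901 to 256907 TPM, a log2 change of -0.22. There hsa-miR-21 made up 74.2% of the drop in miRNA TPM.

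With total miRNA counts as library size, the log2 fold change of hsa-miR-21 was -0.86 in the Hep3B pair (interval -0.86 to -0.85) and -0.48 in the Huh7 pair (-0.49 to -0.48), and it was called in neither. The sign of the Hep3B pair thus turned with the library size. Under that library size 5.64% of miRNAs were called higher and 13.4% lower in Hep3B-C, and 7.25% higher and 9.59% lower in Huh7-C. With hsa-miR-21 itself also taken out of the library size the values were -1.001 in the Hep3B pair, past the threshold, and -0.78 in the Huh7 pair. The library sizes of TMM (a trimmed mean of log ratios) gave -0.51 and -0.34, and the size factors of DESeq2 gave -0.27 and -0.43. With hsa-miR-378 left out beside hsa-miR-21, a setting added after seeing the data, the values were -0.68 and -0.44. Outside the total-read scale the change was negative in both pairs under each of the 5 library sizes tried.

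**Figure D3:**
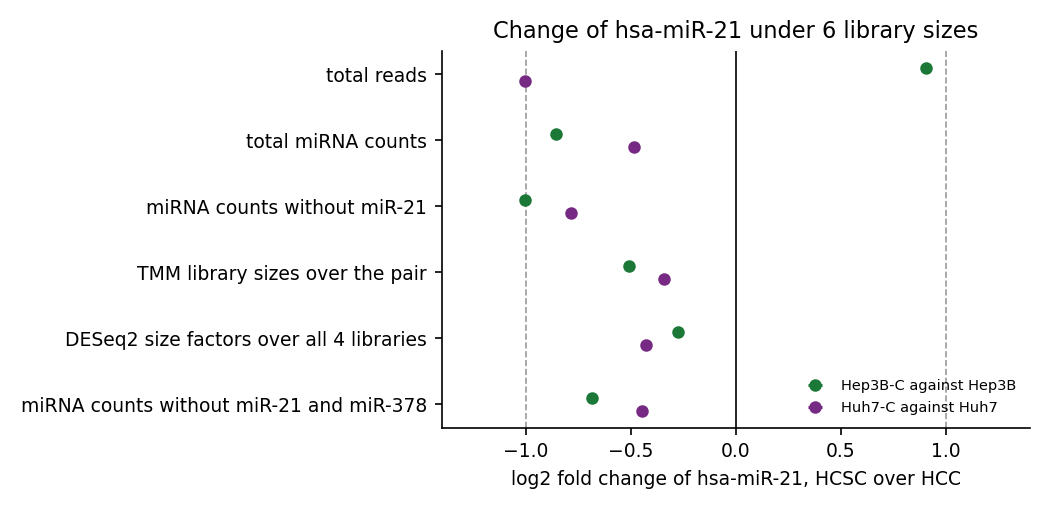
Log2 fold change of hsa-miR-21, HCSC over HCC (horizontal axis), under 6 library sizes (rows), with 1 point per pair. Bars are 95% counting intervals and are narrower than the points; dashed lines mark a log2 fold change of 1 in each direction. Only the Hep3B pair on total reads lies above 0 (0.91); the other values run from -1.002 to -0.27.

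The place of hsa-miR-21 among the changes of the other miRNAs does not depend on library size. Among the others with at least 10 counts in either library, the median log2 fold change of TPM was 1.42 in the Hep3B pair against -0.66 in the Huh7 pair. Relative to that median hsa-miR-21 stood at -0.52 and -0.34, below it in both pairs. In the Hep3B pair 333 of the 474 other miRNAs had a higher log2 fold change than hsa-miR-21 and 141 (29.7%) a lower one. In the Huh7 pair 271 of 430 had a higher and 159 (37.0%) a lower one. Where both counts reached 100, 37.6% of 170 and 26.6% of 158 had a lower change. In neither pair did hsa-miR-21 lie at the edge of the distribution.

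**Figure D4:**
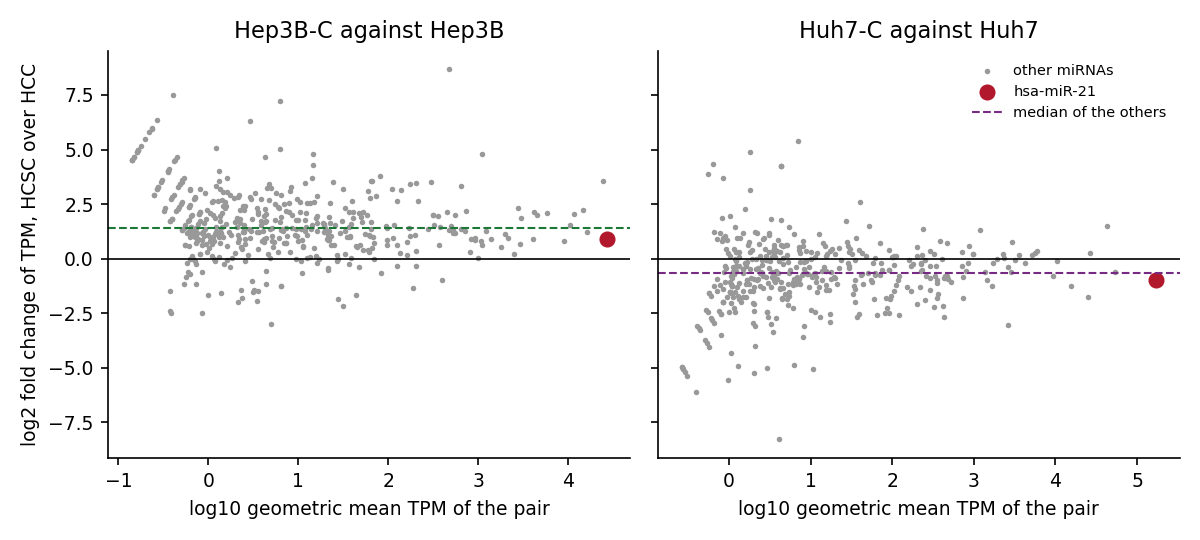
Log2 fold change of TPM (vertical axis, 0.5 counts added) against the log10 geometric mean TPM of the pair (horizontal axis) for miRNAs reaching 10 counts in either library, 1 panel per pair. The red point, hsa-miR-21, lies farthest right in both panels, and in both it lies below the dashed median of the others (1.42 and -0.66).

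Between the parent lines the level differed more than within a pair. Huh7 held 12.3-fold more hsa-miR-21 than Hep3B per total read and 2.36-fold more per miRNA count. Huh7-C held 3.28-fold more than Hep3B-C per total read and 3.05-fold more per miRNA count. The order of the TPM levels was Hep3B, Hep3B-C, Huh7-C and Huh7, and that of the shares Hep3B-C, Hep3B, Huh7-C and Huh7. Neighbours in both orders differed by more than their counting intervals, while the spread between cultures is unknown.

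The passenger strand, hsa-miR-21*, was counted 253 times in Hep3B and 440 in Hep3B-C, against 3018 in Huh7 and 1086 in Huh7-C. There were 1304 guide counts for each passenger count in Hep3B and 1292 in Hep3B-C, against 850 in Huh7 and 1190 in Huh7-C. Huh7 thus had the largest passenger portion, 0.117% of both strands (interval 0.113% to 0.122%), against 0.0840% in Huh7-C (0.0790% to 0.0891%). In the Hep3B pair a difference between the changes of both strands was not detectable at this depth, with a log2 difference of passenger minus guide of 0.01 (interval -0.21 to 0.24). In the Huh7 pair the passenger strand changed further down than the guide, with a log2 difference of -0.48 (-0.58 to -0.38), and on total reads it was called lower in Huh7-C at a log2 fold change of -1.49. With total miRNA counts its value was -0.97 (interval -1.07 to -0.87), not called. With hsa-miR-21 taken out of those counts the passenger value was -1.27, called lower.

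The seed shared with hsa-miR-590-5p was carried almost wholly by hsa-miR-21. Counts of hsa-miR-590-5p were 10 in Hep3B and 10 in Hep3B-C, against 43 in Huh7 and 10 in Huh7-C. At least 99.997% of the counts with this seed were hsa-miR-21 in each library. On total reads the log2 fold change of hsa-miR-590-5p was 0.12 in the Hep3B pair (interval -1.30 to 1.54) and -2.12 in the Huh7 pair (-3.28 to -1.10), where it was called lower. With total miRNA counts the Hep3B value was -1.64 (-3.06 to -0.22), not called. The Huh7 value was then -1.60 (-2.76 to -0.58), called lower.

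The miRNAs most like hsa-miR-21 were sought among the 130 miRNAs, itself included, with at least 100 counts in every library, by the Euclidean distance between log2 TPM centred over the 4 libraries. The nearest were hsa-miR-425 at a distance of 0.285, its own passenger strand at 0.503, hsa-miR-194 at 0.555, hsa-miR-185 at 0.647 and hsa-miR-191 at 0.774, with a median distance of 2.43 over all. The TPM of hsa-miR-425 was 44.0 in Hep3B and 90.9 in Hep3B-C, against 620 in Huh7 and 356 in Huh7-C, the same order of libraries as for hsa-miR-21. With only 4 points this likeness is a description. A change of library size shifts all miRNAs alike and leaves these distances unchanged. Finding all 5 again with shares of miRNA counts without hsa-miR-21 was therefore fixed in advance and is no check.

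On the total-read scale, of 8 miRNAs known to be induced, like miR-21, by NF-kB, AP-1 or STAT3, 3 were called higher and 0 lower in Hep3B-C, and of 7 tested in the Huh7 pair 0 were called. Over all miRNAs tested the shares called on this scale were 34.1% higher and 2.52% lower in Hep3B-C. They were 3.11% higher and 17.1% lower in Huh7-C. These shares include miRNAs with few counts. Of the 475 miRNAs reaching 10 counts in the Hep3B pair, 283 were called higher, and 6 of the 8 members reached 10 counts there. Of these 6, hsa-miR-146b-5p and hsa-miR-132 were called higher. The remaining member called, hsa-miR-212, had 0 counts in Hep3B and 9 in Hep3B-C. Of the 3 members called higher in Hep3B-C, the most abundant was hsa-miR-146b-5p, a regulator of inflammatory signalling, from 3548 to 89356 counts (log2 fold change 4.77). Its close relative hsa-miR-146a went from 116938 to 185624 counts (0.79, not called). Over members with at least 10 counts, the median log2 fold change was 0.81 and -0.11, beside 1.42 and -0.66 over all miRNAs reaching 10 counts. With total miRNA counts 1 was called higher and 2 lower in Hep3B-C, and 1 higher and 0 lower in Huh7-C, where the shares over all miRNAs were 5.64% and 13.4%, and 7.25% and 9.59%. Of 13 miRNAs reported as raised in liver cancer, 4 were called higher and 1 lower in Hep3B-C, and 0 higher and 3 lower in Huh7-C, with medians of 0.67 and -0.16. The shares over all miRNAs tested, 34.1% higher for Hep3B-C and 17.1% lower for Huh7-C, again include miRNAs with few counts. All 4 members called higher in Hep3B-C were among the 11 members with at least 10 counts. At that level 283 of 475 miRNAs were called higher, a larger part than in the list. For Huh7-C the 3 called lower were among 12 such members, beside 137 of 431 miRNAs. These differences from the background were not tested. The hypoxia-induced hsa-miR-210 was lower in both pairs, at -2.17 and -2.27. With total miRNA counts 0 of this list were called higher and 6 lower in Hep3B-C (5.64% and 13.4% over all miRNAs), and 1 higher and 2 lower in Huh7-C (7.25% and 9.59%). Both lists hold hsa-miR-155, hsa-miR-221 and hsa-miR-222.

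The labelled cell type was checked against miRNA markers. The 6 hepatocyte miRNAs summed to between 16.1% and 25.9% of miRNA counts, mostly from hsa-miR-192, hsa-miR-148a and, outside Hep3B, hsa-miR-122. But hsa-miR-122, the most specific of them, had 397 counts in Hep3B against 149892 in Hep3B-C, and 489443 in Huh7 against 144814 in Huh7-C. Between the parent lines hsa-miR-885-5p went the other way. It had 186 counts in Hep3B and 159 in Hep3B-C, against 2 in Huh7 and 0 in Huh7-C. The 6 blood-cell miRNAs summed to 8 counts in Hep3B and 1 in Hep3B-C, against 796 in Huh7 and 5 in Huh7-C, of which the red-cell miRNA hsa-miR-451 gave 773 in Huh7. Of these, hsa-miR-150 and hsa-miR-144 were at 0 in every library. Thus hsa-miR-451 was highest in Huh7, as hsa-miR-21 was. So was hsa-miR-142-3p, with 20 counts there against 4 in Hep3B, 0 in Hep3B-C and 3 in Huh7-C. The highest count of hsa-miR-142-5p was also in Huh7, at 3, while hsa-miR-223 was at 0 there and had 1 count in Hep3B. The 796 counts stood beside 2566558 of hsa-miR-21, and their part in the result was not tested. The 4 fibroblast and smooth muscle miRNAs summed to between 19 and 1711 counts, and both endothelial miRNAs together to between 876 and 2209. Of the 1711 counts, in Hep3B-C, hsa-miR-143 alone gave 1706.

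The abundance of hsa-miR-21 also moves the share of every other miRNA, since the shares add up to a fixed sum. The drop of its share went with a rise of the other shares by 0.14 on the log2 scale (10.5%) in the Hep3B pair and by 0.30 (23.1%) in the Huh7 pair. The rise of hsa-miR-378, from 6.96% to 23.9% and from 4.65% to 18.8% of miRNA counts, went with a shift of all shares but its own of -0.29 and -0.23. In the Hep3B pair the shift from hsa-miR-378 was the larger, and in the Huh7 pair that from hsa-miR-21. No other miRNA reached 0.1 in either pair.

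**Figure D5:**
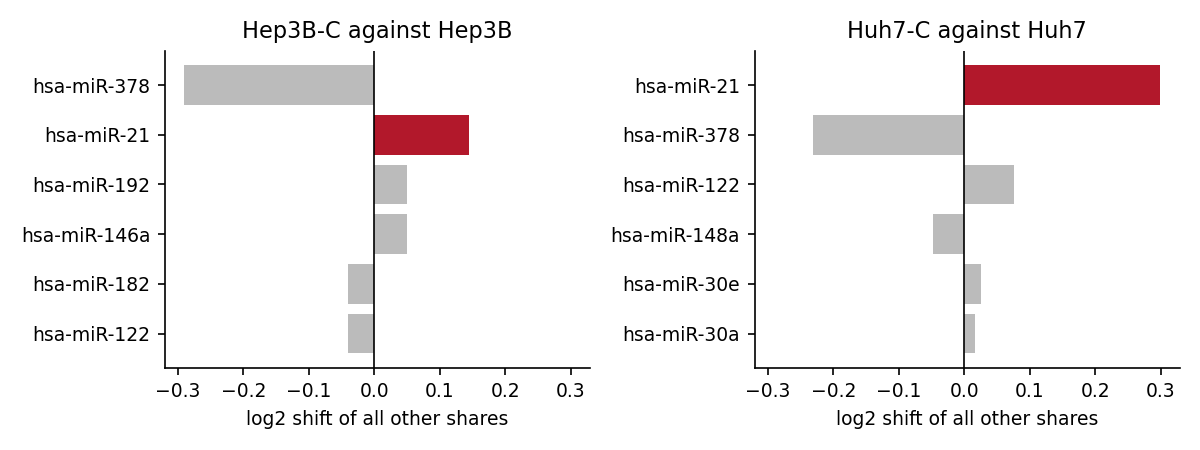
Log2 shift of the shares of all other miRNAs that goes with the change in share of each named miRNA (horizontal axis, HCSC over HCC), for the 6 with the largest shift in each pair. The red bars are hsa-miR-21, at 0.14 in the Hep3B pair against 0.30 in the Huh7 pair, opposite in sign to hsa-miR-378 at -0.29 and -0.23.

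Taking hsa-miR-21 out of the miRNA library size changed the call of 27 of 833 other miRNAs in the Hep3B pair against 51 of 771 in the Huh7 pair. In the Hep3B pair 6 lost a call as higher in the HCSCs and 21 gained a call as lower. In the Huh7 pair 23 lost a call as higher and 28 gained a call as lower. The shares called became 4.92% higher and 16.1% lower in Hep3B-C, and 4.27% higher and 13.2% lower in Huh7-C.

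The most abundant miRNAs among these in the Hep3B pair were hsa-miR-146a, hsa-miR-30d, hsa-miR-17, hsa-miR-30e and hsa-miR-181b, all with a call gained as lower in Hep3B-C. For hsa-miR-146a the log2 fold change went from -0.98 to -1.12. In the Huh7 pair hsa-miR-30e, from 250081 to 107033 counts, went from -0.72 to -1.02 and gained a call as lower, and hsa-miR-101, a repressor of EZH2, went from -0.75 to -1.05. The miRNAs hsa-miR-151-3p (1.27 to 0.97), hsa-miR-27a (1.07 to 0.77) and hsa-miR-196b (1.22 to 0.92) lost a call as higher in Huh7-C. On total reads hsa-miR-30e was at 0.83 in the Hep3B pair against -1.24 in the Huh7 pair.

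With both lines fitted together as replicates of the comparison, and the parent line as a block, the log2 fold change of hsa-miR-21 was -0.37 (SE 0.171, adjusted p = 0.584, edgeR quasi-likelihood test with TMM over 443 miRNAs). The change was not past the threshold of 0.05. The fit had 1 residual degree of freedom, and 0 of the 443 miRNAs (0%) were called by edgeR, with 31 at an unadjusted p under 0.05. With total miRNA counts in place of TMM the same edgeR fit called 4 higher and 4 lower, hsa-miR-21 not among them (log2 fold change -0.67, adjusted p = 0.631). DESeq2 called 4 higher and 1 lower, and gave hsa-miR-21 a log2 fold change of -0.32 (SE 0.544, adjusted p = 0.999).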

How the data were processed

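Small RNA of 4 cell populations was sequenced on an Illumina Genome Analyzer II. Per the study's methods, the authors filtered contaminant and redundant reads and those under 18 nt, aligned the rest to NCBI Build 36.1 with SOAP, removed other small RNA classes and searched miRBase release 17. The authors deposited raw read counts of 1733 miRNAs per library, without normalization. How removing redundant reads affected counts is not given in the sources used here. The mRNA libraries were not analysed here.

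TPM is each count over the library's total reads, which the study's methods state. Libraries of a pair were compared by a 2-sided exact Poisson test (Audic and Claverie) with Benjamini-Hochberg adjustment over miRNAs with at least 1 count, a TPM of 0 being set to 0.001. The upper tail leaves out the observed count. The test was first run with a tail that includes it and was changed after those calls had been seen; a check made afterwards, limited to the upward p-values above 0 in the study's list of called miRNAs, found that these follow the tail used here. This tail gives slightly smaller p-values than the inclusive form, so it is slightly too lenient. Both lines were fitted by edgeR 4.0.16 with TMM over miRNAs reaching 10 counts in 2 or more libraries, and by DESeq2 1.42.0 (R 4.3.3). Other computations used Python 3.11.15, scipy 1.17.1 and pandas 2.3.3. The Poisson test and the edgeR fit were also run on simulated data. The simulation for the Poisson test held counting error only, so it says nothing about variation between cultures.

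Named miRNAs were hsa-miR-21, its passenger arm, those with its seed, the 5 most abundant of each library, the 5 nearest in profile, up to 5 per pair whose call changed without hsa-miR-21, and list members. The result of 1 list is not reported here. Members and lists were chosen with earlier results of these data known. Alternatives were other library sizes, filters, pseudocounts, an assumed biological coefficient of variation of 0.4, fold alone, and leaving out each library.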

Additional observations from a re-analysis of the deposited data

Results flagged for a closer look

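On total reads the log2 fold change of hsa-miR-21 was 0.91 in the Hep3B pair against -1.002 in the Huh7 pair, opposite directions under the same contrast. With 1 library per condition the difference was not tested. On miRNA counts both values were negative (-0.86 and -0.48).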

How the results depend on the processing

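The log2 fold change of hsa-miR-21 in the Hep3B pair (0.91) turned to -0.86 with total miRNA counts. Without hsa-miR-21 in them it was -1.001, called lower. It was -0.51 with TMM, -0.27 with DESeq2 size factors and -0.68 without hsa-miR-21 and hsa-miR-378 (the last chosen after seeing the data). In the Huh7 pair (-1.002, called) the same settings gave -0.48, -0.78, -0.34, -0.43 and -0.44, none called, and under edgeR's exact test at a coefficient of variation of 0.4 the value of -1.002 was not called. The difference between the pairs (-1.91) became 0.37 with miRNA counts and 0.22 without hsa-miR-21.

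Over both lines (-0.37), leaving out a library in turn, without the block, gave -1.96 to 1.19; the sign turned without Hep3B-C (0.17) and without Huh7 (1.19). Without the replicate block the value was -0.45, not called in either fit. The remaining library sizes, DESeq2 and no filter kept its sign, from -0.67 to -0.05.

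Guide strands alone gave shares of 19.3%, 10.6%, 46.5% and 33.1% in Hep3B, Hep3B-C, Huh7 and Huh7-C, with unchanged ranks. Calls higher and lower in Hep3B-C were 284 and 21 on total reads, 47 and 112 with miRNA counts, 41 and 134 without hsa-miR-21, 71 and 76 with TMM, 96 and 59 with DESeq2 factors and 536 and 98 by fold alone. In Huh7-C they were 24 and 132, then 56 and 74, 33 and 102, 69 and 67, 59 and 71, and 112 and 322. The Poisson test with the observed count in its upper tail, the form run first, called 275 and 21 for Hep3B-C, and for Huh7-C 23 and 132. The median log2 fold change of the other miRNAs (1.42 and -0.66) was -0.34 and -0.15 with miRNA counts, -0.48 and -0.45 without hsa-miR-21, and 1.39 and -0.62 with at least 100 counts. A minimum of 1000 counts in every library removes 3 of the 5 nearest miRNAs by itself (hsa-miR-425, hsa-miR-21* and hsa-miR-185), so the 2 that remained say nothing about stability. The cause of these changes, beyond the library size itself, was not tested. For hsa-miR-21 the counting intervals were narrower than the shifts between library sizes; for hsa-miR-590-5p, with 10 to 43 counts, they were wider.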
